A study of Trichoderma reesei with 6 samples.

Results

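Scaffold 7 is one of the numbered pieces of assembled sequence that the gene models of Trichoderma reesei are named by, and 433 of the 9129 models in the deposited table carry its number. A model was taken as a member when its name gave scaffold 7, as in fgenesh5_pg.C_scaffold_7000280, estExt_fgenesh5_pg.C_70028 or e_gw1.7.274.1. The scaffold itself was chosen on measured values, because its models rose less on xylose than those of other scaffolds in these same libraries. Every comparison of xylose with glucose below is therefore a description of the members, and neither the calls nor the folds are evidence that the scaffold stands apart. RNA came from hyphae of strain HJ48, 4 days old, in anaerobic fermentation of glucose (3 libraries) or of xylose (3 libraries). The series title speaks of recombinant strains, and the sample labels give no allele or transgene for HJ48. The labels do not say whether the 3 libraries of a sugar came from separate cultures, so their spread may be technical.

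Trichoderma reesei is a filamentous fungus known for secreting enzymes that degrade plant cell walls. It takes up glucose into glycolysis directly, while xylose is first converted by a reductase and a dehydrogenase and then enters the pentose phosphate pathway. Many fungal genes for carbohydrate-active enzymes and secondary metabolites lie side by side in clusters, so the order of genes along a scaffold is a natural axis for describing expression. The names used here come from gene prediction programs. Fgenesh predicts genes mainly from the sequence itself, GeneWise builds a model by aligning a protein from another organism (gw1 and e_gw1), and estExt models are predictions extended with expressed sequence tags. No model name could be matched to a symbol or product in the reference table, so no function is given for any member and the labelled hyphae could not be checked against marker genes.

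The 433 members fall into 9 prediction series. The largest are fgenesh5_pg with 128 models, e_gw1 with 117, estExt_fgenesh5_pg with 65 and estExt_GeneWisePlus with 51. The other 72 members are in fgenesh1_pm (20), gw1 (19), estExt_Genewise1 (17), estExt_fgenesh1_pm (12) and kg2 (4). The makeup differed somewhat from that of the whole table, where fgenesh5_pg makes up 24.8% of models against 29.6% here, and e_gw1 27.8% against 27.0%. For estExt_fgenesh5_pg the shares were 13.3% against 15.0%, and for estExt_GeneWisePlus 14.3% against 11.8%. Numbers run from 6 to 521 in fgenesh5_pg, from 1 to 510 in estExt_fgenesh5_pg, from 15 to 840 in e_gw1 and from 12 to 750 in estExt_GeneWisePlus. Numbers recur between series, and 15 are shared by fgenesh5_pg and estExt_fgenesh5_pg. How the numbers of different series line up along the scaffold is not known, so each series is described by itself. Lengths worked out from the steps between low values had a median of 912 nt in fgenesh5_pg and 1683 nt in estExt_GeneWisePlus. In fgenesh5_pg 93.8% of these lengths were multiples of 3 and in e_gw1 100%, as coding lengths would be, against 41.2% in estExt_GeneWisePlus.

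Levels are given in FPKM, fragments scaled to the length of the model and to the library total. The 396 members whose mean over 6 libraries reached 1 FPKM were tested, and the other 37 were not. The highest mean among the 37 was 0.999 FPKM, the lowest among those tested was 1.01 FPKM, and no library gave any of the 37 more than 2.58 FPKM. Only 1 member was listed at 0 in every library, and 318 members had at least 1 FPKM in all 6. Implied library totals were 8887469 to 11449774 reads, of which scaffold 7 held 584291 to 853070.

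On glucose the models of scaffold 7 stood at a higher median level than the rest of the genome, and on xylose the medians were close. The median of the tested members was 11.3, 12.0 and 10.4 FPKM in glucose replicates 1, 2 and 3, against 5.59, 5.90 and 5.33 FPKM for the 7370 tested models of other scaffolds. In xylose replicates 1, 2 and 3 the members had medians of 18.4, 16.0 and 13.5 FPKM, against 19.1, 15.5 and 12.0 FPKM. The ratio of the 2 medians was 2.00 ± 0.039 in glucose and 1.04 ± 0.079 in xylose (SD, n = 3), and the glucose and xylose ratios do not overlap. On glucose 354 to 365 members, 81.8% to 84.3%, stood at 1 FPKM or more, where other scaffolds had 68.3% to 70.4%. On xylose 379 to 383 members did, 87.5% to 88.5%, against 84.5% to 87.2%. In bulk RNA a lower level in the whole culture and a level confined to fewer hyphae cannot be told apart.

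**Figure D1:**
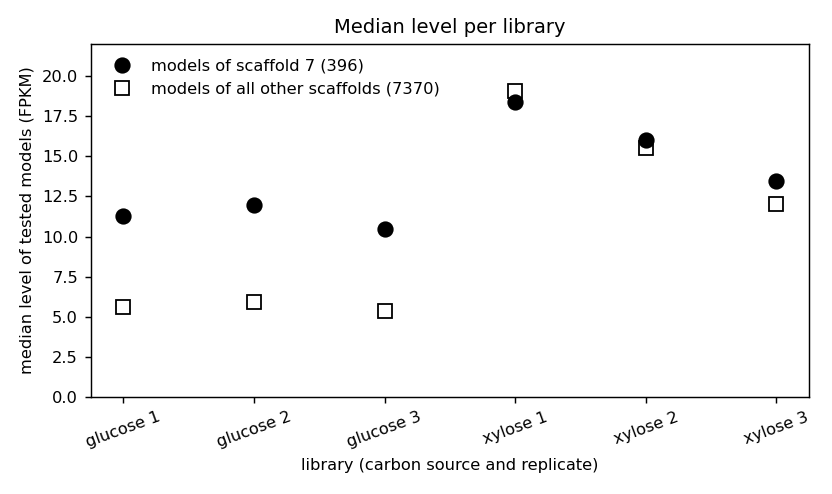
Median level (FPKM, linear axis from 0) of the 396 tested models of scaffold 7 (filled circles) and of the 7370 tested models of all other scaffolds (open squares) in each of the 6 libraries. The circles lie well above the squares in the 3 glucose libraries and close to them in the 3 xylose libraries.

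Among the 39 scaffolds with at least 20 tested models, scaffold 7 had the second highest median level on glucose (11.6 FPKM, behind scaffold 39 with 12.2) and ranked 23 on xylose (15.7 FPKM). Its median log2 fold change, xylose minus glucose on log2(FPKM + 1), was the second lowest at 0.45, after scaffold 30 at 0.40. Scaffold 30 has 57 tested models and scaffold 39 has 27, while scaffold 7 is among the largest. The scaffolds numbered beside it had glucose medians of 5.27 FPKM (scaffold 6) and 4.71 FPKM (scaffold 8), and median log2 fold changes of 1.18 and 1.33.

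Of the 396 tested members, 184 were called higher in xylose and 117 lower, and 95 were not called, by limma with Benjamini-Hochberg adjustment over all 7766 tested models and a threshold of 0.05. Over all tested models 64.8% were called higher and 14.1% lower. The groups did not overlap in 194 members that were higher and 118 that were lower, where the shares over all tested models were 66.2% and 15.2%. Calls of at least 2-fold on that scale numbered 136 rises and 72 falls among members, and 52.9% and 7.64% of all tested models. These numbers depend on how libraries are scaled, because most models of the table are higher on xylose relative to the library total. With scaling by the median of ratios, which removes most of that shift, 80 members were called higher and 205 lower, and the shares over all tested models were 38.4% and 35.0%. The median of the members turned to -0.59 with that scaling and that of the other models became 0.15. The gap between them was -0.70 on FPKM as deposited and -0.74 with the median of ratios.

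Members had a lower median log2 fold change than other models in every class of level, and the gap was widest between 50 and 100 FPKM. In the 100 members with a mean of 1 to 5 FPKM the median log2 fold change was 0.73, against 1.33 in other models of that class. It was 0.92 against 1.53 at 5 to 10 FPKM (57 members) and 0.40 against 1.14 at 10 to 50 FPKM (153 members). At 50 to 100 FPKM the 40 members had a median of -0.63, and 21 of them fell and 14 rose. The other 605 models of the class had a median of 0.68, and 134 fell and 347 rose. At 100 to 500 FPKM the values were 0.005 in 31 members and 0.17 in the others. Above 500 FPKM there were 15 members with a median of -0.83, 11 of them lower and 1 higher, and 227 other models with a median of -0.15, 102 of them lower and 76 higher. With the median of ratios the members also had the lower median in each of the 6 classes, from -0.10 against 0.57 in the lowest class to -2.04 against -1.37 in the highest.

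**Figure D2:**
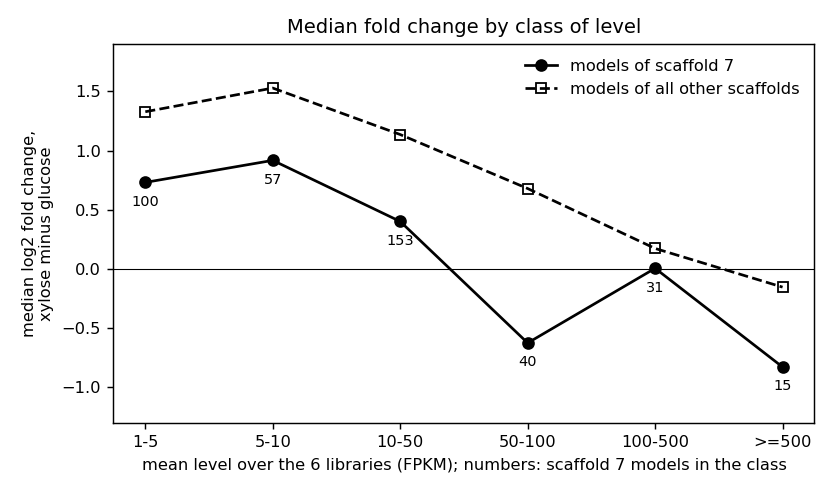
Median log2 fold change (xylose minus glucose, log2(FPKM + 1)) by class of mean level for tested models of scaffold 7 (filled circles, with the number of models) and of all other scaffolds (open squares). The filled circles lie below the open squares in all 6 classes, with 40 members at -0.63 in the class of 50 to 100 FPKM.

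The prediction series of scaffold 7 differed among themselves. The lowest medians of log2 fold change among the larger series were 0.028 in fgenesh5_pg (107 tested, 37 higher, 38 lower) and 0.12 in e_gw1 (107 tested, 46 higher, 37 lower). In estExt_fgenesh5_pg 35 of 62 models were higher and 15 lower, with a median of 0.70, and in estExt_GeneWisePlus 32 of 51 were higher and 7 lower, with a median of 0.92. On other scaffolds the same 4 series had medians of 0.82, 1.16, 1.40 and 1.33. In each of the 4 series the members thus had the lower median, and fgenesh5_pg had the lowest of the 4 on scaffold 7 and elsewhere. Calls of higher made up 34.6%, 43.0%, 56.5% and 62.7% of tested members, against 56.0%, 67.0%, 71.5% and 71.7% on other scaffolds. Calls of lower made up 35.5%, 34.6%, 24.2% and 13.7%, against 17.4%, 12.5%, 10.6% and 11.6%. Median levels on glucose were 13.2, 9.70, 10.4 and 18.5 FPKM in the 4 series of scaffold 7, against 4.07, 3.88, 7.65 and 7.69 FPKM elsewhere.

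Along the numbers, rises and falls were interspersed, and stretches rich in falls were found in fgenesh5_pg and e_gw1. When the tested models of fgenesh5_pg were taken in blocks of 10 in number order, the block from 268 to 285 stood at a median of -1.54 in log2 fold change, and held 6 models lower and 1 higher. The next blocks, 289 to 340 and 355 to 387, had medians of -0.47 and -0.44. The blocks before them had medians between 0.055 and 1.08. Among 139 such blocks of this series over all scaffolds, these 3 ranked 2, 5 and 6 from the lowest. The start of this series looked different, and the block from 6 to 50 had 7 models higher and 3 lower. In e_gw1 the block from 581 to 647 also had 6 models lower, with 4 higher and a median of -0.60. The e_gw1 blocks from 274 to 360, from 15 to 138 and from 678 to 718 had medians of -0.54, -0.41 and -0.25. These 4 blocks ranked 2, 3, 4 and 5 from the lowest among the 191 blocks of e_gw1 over all scaffolds. In estExt_fgenesh5_pg the blocks starting at 298 and 424 ranked 2 and 3 of 96, and its other blocks 10 to 63. The block from 298 held 4 models higher and 2 lower, and that from 424 held 4 of each. Scaffold 7 was chosen for low changes of this kind, so low ranks of its blocks are no evidence that it stands apart.

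**Figure D3:**
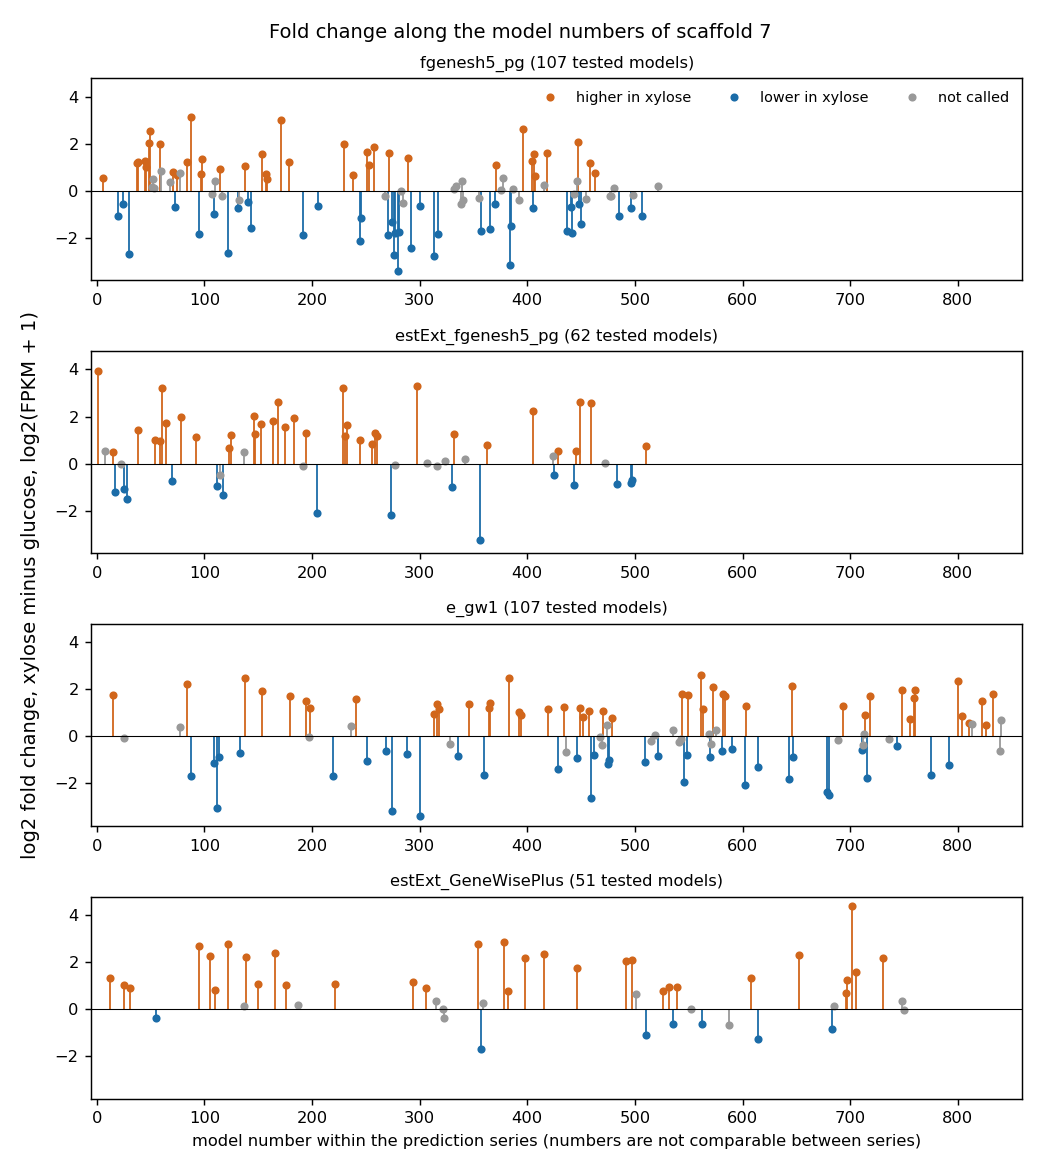
Log2 fold change (xylose minus glucose, log2(FPKM + 1)) of each tested model of the 4 largest prediction series of scaffold 7 against its model number, coloured by limma call. Falls crowd between 271 and 317 in fgenesh5_pg, a stretch picked after these values were seen. In estExt_fgenesh5_pg there are 7 successive rises from 146 to 183.

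The longest runs of falls held 5 successive tested models, and there were 3 of them. Successive means next in number among the tested models of a single series. Models of other series may lie between them, so a run need not be a row of neighbouring genes. Steps in number between successive tested models reached 24 in fgenesh5_pg, 52 in e_gw1 and 73 in estExt_GeneWisePlus. The run in fgenesh5_pg went from model 274 to model 281. fgenesh5_pg.C_scaffold_7000280, which led the falls named by log2(FPKM + 1) as deposited, had 42.8, 76.3 and 50.3 FPKM in glucose replicates 1, 2 and 3 and 2.27, 6.73 and 4.60 FPKM in xylose replicates 1, 2 and 3. Its lowest glucose library was thus several times its highest xylose library, and its log2 fold change was -3.42 (SE 0.33). The order at the top rests on the scale, since e_gw1.7.300.1 was at -3.40 and lower with the median of ratios (-4.54 against -4.46). fgenesh5_pg.C_scaffold_7000384 fell further by the ratio of means (26.9-fold against 12.5-fold). fgenesh5_pg.C_scaffold_7000281, next in number, had 70.2, 131 and 82.7 FPKM on glucose and 19.6, 31.4 and 30.4 FPKM on xylose, a log2 fold change of -1.74 (SE 0.26). fgenesh5_pg.C_scaffold_7000276 had 9.44, 13.7 and 11.4 FPKM on glucose and 1.00, 0.658 and 0.939 FPKM on xylose, and it rests on 311 reads against 27. In this model the change was a near loss, with a log2 fold change of -2.74 (SE 0.24). fgenesh5_pg.C_scaffold_7000277 went from 6.34, 12.8 and 7.53 FPKM to 1.70, 2.10 and 1.45 FPKM, and fgenesh5_pg.C_scaffold_7000274 from 15.3, 24.8 and 14.7 FPKM to 8.74, 6.09 and 4.97 FPKM. All 5 models had every xylose library below every glucose library, and all 5 were also called lower with the median of ratios.

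A wider stretch of fgenesh5_pg was picked out after these values were seen, from the first fall of the lowest block (model 271) to the end of the next run of 4 falls (model 317). It holds 20 models, 14 of them tested, of which 10 fell, 2 rose and 2 were not called. The median of its tested models was 18.0, 27.0 and 14.9 FPKM in glucose replicates 1, 2 and 3 and 5.39, 6.41 and 5.01 FPKM in xylose replicates 1, 2 and 3. In the other 93 tested models of the series the medians were 11.4 to 12.0 FPKM on glucose and 12.1 to 13.4 FPKM on xylose, and 35 rose and 28 fell. Since the stretch was cut to begin and end at falls, its contrast with these models follows in part from the cut. The stretch includes fgenesh5_pg.C_scaffold_7000317, with 795, 887 and 662 FPKM on glucose and 185, 216 and 256 FPKM on xylose. It also includes the only 2 members listed at 0 in all xylose libraries and above 0 in all glucose libraries. These were fgenesh5_pg.C_scaffold_7000287 (6 reads on glucose) and fgenesh5_pg.C_scaffold_7000291 (15 reads on glucose), both below 1 FPKM in each library and not tested. The 2 rises lay inside the stretch too. fgenesh5_pg.C_scaffold_7000272 had 13.6, 8.66 and 13.2 FPKM on glucose and 48.4, 42.0 and 26.5 FPKM on xylose, and fgenesh5_pg.C_scaffold_7000289 had 1.05, 0.553 and 0.950 FPKM against 6.42, 3.91 and 2.11 FPKM.

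**Figure D4:**
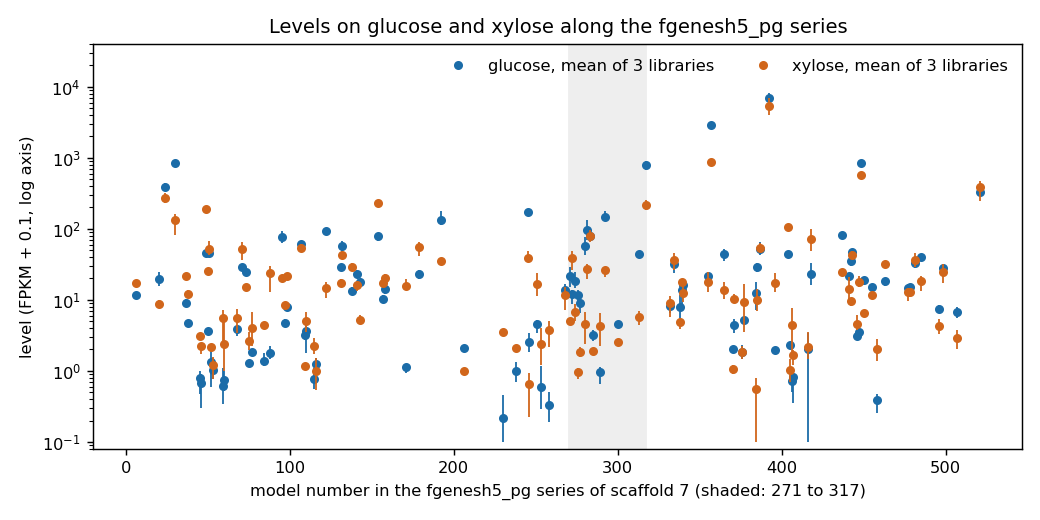
Level (FPKM + 0.1, log axis) of the tested fgenesh5_pg models of scaffold 7 against their number, as the mean of 3 libraries (points) with the range from the lowest to the highest library (bars), on glucose (blue) and xylose (orange). In the shaded stretch from 271 to 317, picked after these values were seen, most blue points lie above the orange ones. There 10 of 14 models were lower on xylose.

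Between the glucose libraries, 10 of the 14 tested models of this stretch were highest in replicate 2 and 4 in replicate 1. Of the 10 models called lower, 9 were highest in replicate 2. In the other numbers of the series replicate 2 was highest in 34 of 93 tested models. Of all 117 members called lower, 59 (50.4%) did, as did 51.0% of the 978 models called lower on other scaffolds. Because the stretch was picked from its values, and its models share the same 3 libraries, this is given without a test.

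The other runs of 5 falls were in e_gw1, from 88 to 133 and from 251 to 300. Numbers in this series need not follow the order along the scaffold. e_gw1.7.274.1 had 508, 754 and 555 FPKM on glucose and 49.1, 82.8 and 69.8 FPKM on xylose, a log2 fold change of -3.16 (SE 0.21), and was the most abundant model of these runs on glucose. e_gw1.7.300.1 had 112, 135 and 138 FPKM on glucose and 7.74, 13.8 and 12.9 FPKM on xylose, a log2 fold change of -3.40 (SE 0.22). e_gw1.7.112.1 went from 59.9, 70.6 and 59.96 FPKM to 6.14, 7.75 and 6.46 FPKM, with little spread in either group and a log2 fold change of -3.05 (SE 0.18). Each of these models was therefore strongly lower, while their neighbours in number changed less. The other members of both runs were e_gw1.7.88.1, e_gw1.7.109.1, e_gw1.7.114.1, e_gw1.7.133.1, e_gw1.7.251.1, e_gw1.7.269.1 and e_gw1.7.288.1, with log2 fold changes from -1.69 to -0.62. Runs of 5 or more falls numbered 2 in e_gw1 on scaffold 7 and 0 among the 2005 tested e_gw1 models elsewhere. In fgenesh5_pg there was 1 on scaffold 7 and 2 among 1509 tested models elsewhere. Falls made up 34.6% of tested e_gw1 models and 35.5% of tested fgenesh5_pg models of scaffold 7, so long runs of them are also easier to reach there.

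**Figure D5:**
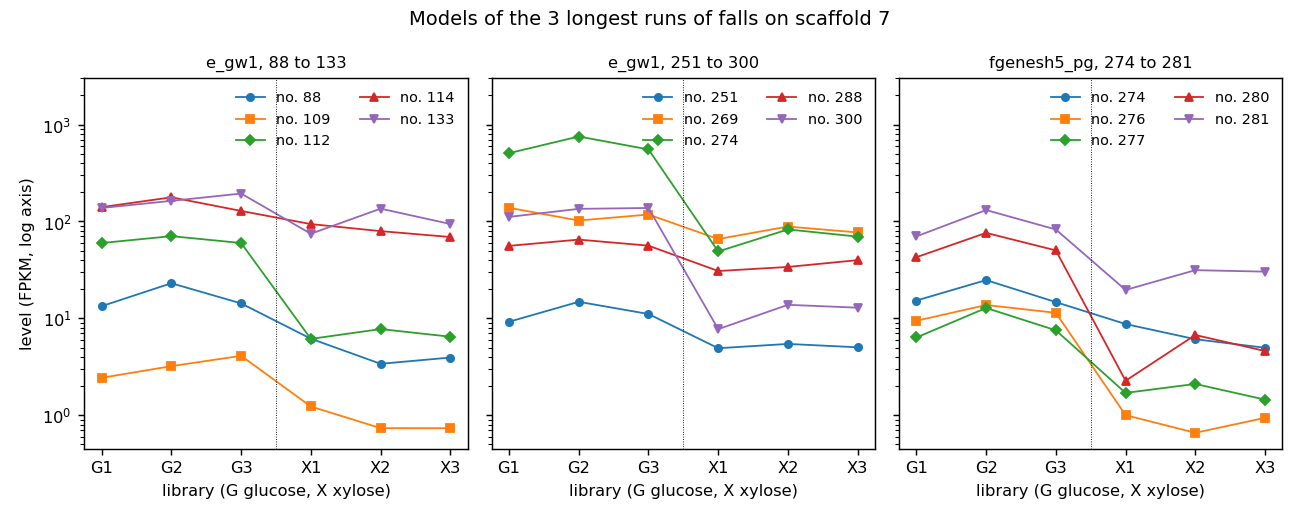
Level (FPKM, log axis) in each library of the 15 models in the 3 longest runs of falls on scaffold 7. Lines only join values of the same model, since libraries of a group have no order, and each model lies lower in all 3 xylose libraries (X1 to X3) than in all 3 glucose libraries (G1 to G3).

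The 2 falls outside these runs that were among the 6 largest were estExt_fgenesh5_pg.C_70356 and fgenesh5_pg.C_scaffold_7000384. estExt_fgenesh5_pg.C_70356 had 50.03, 63.7 and 48.1 FPKM on glucose and 6.44, 4.74 and 3.44 FPKM on xylose, a log2 fold change of -3.25 (SE 0.24). fgenesh5_pg.C_scaffold_7000384, a short model of 255 nt, had 12.4, 6.99 and 17.6 FPKM on glucose and 0, 0.686 and 0.685 FPKM on xylose. It rests on 90 reads against 4, so its log2 fold change of -3.15 (SE 0.35) is loosely bounded.

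Rises came in longer runs than falls, and they also made up more of the series in question, 56.5% of tested estExt_fgenesh5_pg models and 62.7% of tested estExt_GeneWisePlus models. Runs of 5 or more rises numbered 3 among 62 tested models in estExt_fgenesh5_pg and 2 among 51 in estExt_GeneWisePlus, against 53 among 1087 and 67 among 1215 on other scaffolds. The 3 longest held 7 successive tested models each, in estExt_fgenesh5_pg from 146 to 183 and from 229 to 260, and in estExt_GeneWisePlus from 378 to 497. In the run from 146 to 183 the log2 fold changes were 1.26 to 2.61 and 6 of the 7 models were still called higher with the median of ratios. estExt_fgenesh5_pg.C_70146 led it in level, with 34.8, 47.8 and 30.1 FPKM on glucose and 188, 163 and 120.5 FPKM on xylose. estExt_fgenesh5_pg.C_70168 rose most, from 0.662, 0.0970 and 0.400 FPKM to 10.4, 6.94 and 5.39 FPKM, on 11 reads against 258. The others were estExt_fgenesh5_pg.C_70147, estExt_fgenesh5_pg.C_70153, estExt_fgenesh5_pg.C_70164, estExt_fgenesh5_pg.C_70175 and estExt_fgenesh5_pg.C_70183, which rose by 1.26 to 1.93 on the log2 scale.

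The run from 229 to 260 rested more on the scaling, since 2 of its 7 models were still called higher with the median of ratios. Its most abundant member, estExt_fgenesh5_pg.C_70231, had 199.9, 192 and 173 FPKM on glucose and 430.4, 421 and 437 FPKM on xylose, among the tightest xylose values of the named models. Its log2 fold change of 1.19 (SE 0.12) turned to -0.023 with the median of ratios, but was 1.07 and still called higher with quantile normalization. estExt_fgenesh5_pg.C_70229 rose from 0.625, 1.28 and 0.567 FPKM to 20.7, 25.1 and 6.95 FPKM, a log2 fold change of 3.20 (SE 0.41), with xylose replicate 3 well below the other two. estExt_fgenesh5_pg.C_70233, estExt_fgenesh5_pg.C_70245, estExt_fgenesh5_pg.C_70256, estExt_fgenesh5_pg.C_70259 and estExt_fgenesh5_pg.C_70260 rose by 0.82 to 1.64, and estExt_fgenesh5_pg.C_70256 turned to -0.35 with the median of ratios.

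In the run of estExt_GeneWisePlus from 378 to 497, estExt_GeneWisePlus.C_70416 had 103, 107 and 103 FPKM on glucose and 528, 525 and 552 FPKM on xylose, a log2 fold change of 2.35 (SE 0.12). Both groups were tight and far apart. estExt_GeneWisePlus.C_70378 rose most in this run, from 2.67, 2.30 and 0.823 FPKM to 25.1, 20.6 and 13.6 FPKM, a log2 fold change of 2.84 (SE 0.33). estExt_GeneWisePlus.C_70398, estExt_GeneWisePlus.C_70446, estExt_GeneWisePlus.C_70492 and estExt_GeneWisePlus.C_70497 rose by 1.75 to 2.19. estExt_GeneWisePlus.C_70382, with 54.2, 59.0 and 51.6 FPKM on glucose and 104, 83.0 and 96.4 FPKM on xylose, was called higher as deposited (0.77, SE 0.15) and lower with the median of ratios (-0.43).

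On log2(FPKM + 1) as deposited the largest named rise was that of estExt_GeneWisePlus.C_70702, which had 16.2, 12.1 and 9.68 FPKM on glucose and 267, 247 and 326 FPKM on xylose. This was a 22.2-fold ratio of means and a log2 fold change of 4.38 (SE 0.20). estExt_fgenesh5_pg.C_70298 rose from 1.91, 2.86 and 1.63 FPKM to 37.4, 32.3 and 21.3 FPKM (3.31, SE 0.27) and estExt_fgenesh5_pg.C_70061 from 2.57, 2.73 and 1.94 FPKM to 35.8, 27.5 and 28.0 FPKM (3.20, SE 0.23). Only 2 members were under 1 FPKM in each glucose library and at least 10 FPKM in each xylose library, out of 72 models of the whole table that met these limits. estExt_fgenesh5_pg.C_70001, the lowest number of its series, had 0.396, 0.0871 and 0.179 FPKM on glucose and 15.0, 23.1 and 15.4 FPKM on xylose, from 7 reads against 684. gw1.7.504.1, a model of 342 nt, had 0, 0.289 and 0.597 FPKM against 18.8, 14.8 and 11.2 FPKM, from 3 reads against 171. Their glucose levels lie near the depth of these libraries, so the size of these rises rests on few glucose reads. Their place depends on the scale. With a pseudocount of 0.1 their log2 fold changes were 5.89 and 5.62 against 4.48 for estExt_GeneWisePlus.C_70702, and with the median of ratios estExt_fgenesh5_pg.C_70001 was at 3.23 against 3.21.

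The abundant members held most of the scaffold's signal. Its 5 most abundant models made up 57.7% to 58.2% of the summed FPKM of scaffold 7 on glucose and 50.2% to 53.1% on xylose. All members together held 7.33% ± 0.078 of the summed FPKM of a library on glucose and 5.24% ± 0.20 on xylose (SD, n = 3). Without the 5 models the shares were 3.08% ± 0.053 and 2.55% ± 0.036, so the groups stayed apart while the gap narrowed. Of all reads, 8.18% ± 0.25 on glucose and 5.54% ± 0.17 on xylose fell on the scaffold. Its models took 8 of the 100 highest places by mean FPKM on glucose and 7 of 100 on xylose, while they are 4.74% of all models.

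estExt_fgenesh5_pg.C_70028 was the most abundant member on glucose, with 17135, 17790.3 and 18328 FPKM, and had 7157, 6256 and 5506 FPKM on xylose. It fell by 1.50 on the log2 scale (SE 0.14) and alone held 26.8% to 28.6% of the scaffold's summed FPKM on glucose and 11.7% to 16.9% on xylose. fgenesh5_pg.C_scaffold_7000357 fell from 2699, 2912 and 3008 FPKM to 769, 941 and 916 FPKM (-1.72, SE 0.13) and estExt_fgenesh5_pg.C_70483 from 2535, 2635 and 2432 FPKM to 1196, 1288 and 1718 FPKM (-0.87, SE 0.15). In these 3 models the groups lay apart. Another 3 of the most abundant members overlapped between the sugars. estExt_fgenesh5_pg.C_70277, the most abundant on xylose, had 6273, 9617 and 6712 FPKM on glucose and 6485, 6609 and 8043 FPKM on xylose. fgenesh5_pg.C_scaffold_7000392 had 8035, 6402 and 6535 FPKM against 4052, 5210.0 and 6834 FPKM, and gw1.7.723.1 had 2994, 2145 and 2952 FPKM against 2406, 2424 and 2914 FPKM. None of these 3 was called on FPKM as deposited (fgenesh5_pg.C_scaffold_7000392 was called lower, at -0.60, without xylose replicate 3). All 3 were called lower with the median of ratios, with log2 fold changes of -1.29, -1.62 and -1.27. The 2 scalings differed here, since quantile normalization left all 3 not called, at -0.010, -0.32 and 0.012. The sixth by level on xylose, estExt_fgenesh5_pg.C_70429, was called higher, with 1004, 1054 and 912 FPKM on glucose and 1240.0, 1289 and 1871 FPKM on xylose (0.54, SE 0.17). Its value turned to -0.67 with the median of ratios and was then not called, while with quantile normalization it was 0.65 and still called higher.

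Neighbours in number changed together only weakly. The log2 fold changes of adjacent tested models correlated at r = 0.24 over 106 pairs in fgenesh5_pg, 0.13 over 61 pairs in estExt_fgenesh5_pg, 0.10 over 106 pairs in e_gw1 and 0.002 over 50 pairs in estExt_GeneWisePlus. These are correlations across models that share the same 6 libraries and are given as a description. Both models were called in 57 adjacent pairs of fgenesh5_pg, and 37 of them went the same way. The same tally was 24 of 39 in estExt_fgenesh5_pg, 38 of 66 in e_gw1 and 21 of 30 in estExt_GeneWisePlus. For numbers that differed by 1 it was 11 of 16 in fgenesh5_pg and 3 of 7 in e_gw1. These tallies depend on the split of calls, since pairs match more often where most calls go 1 way. Higher and lower calls made up 62.7% and 13.7% of tested models in estExt_GeneWisePlus and 56.5% and 24.2% in estExt_fgenesh5_pg. They made up 43.0% and 34.6% in e_gw1 and 34.6% and 35.5% in fgenesh5_pg. Agreement beyond that split was not tested. The median step in number between adjacent tested models was 3 in fgenesh5_pg and 11 in estExt_GeneWisePlus.

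The spread within a sugar was close to that of other models. The median SD of log2(FPKM + 1) over 3 libraries was 0.19 in members and 0.18 in other models on glucose, and 0.28 against 0.31 on xylose. Differences between the xylose libraries are not independent of the choice of the scaffold, because they go with the call. Models called higher were highest in xylose replicate 1 in 70.7% of members and 72.2% of others, and models called lower in 29.9% and 37.3%. Xylose replicate 1 lay above replicate 3 by a median of 0.23 log2 units in members, where 259 of 396 (65.4%) were higher, and by 0.45 in other models, where 77.7% were higher. Replicate 1 lay above replicate 2 by 0.15 against 0.23, and replicate 2 above replicate 3 by 0.11 against 0.18. Glucose libraries differed by a median of 0.06 log2 units or less in members. With 3 libraries a sugar the difference between members and other models was not tested.

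The members with the largest spread on xylose were high in replicate 1. e_gw1.7.813.1 had 53.0, 18.3 and 11.7 FPKM in xylose replicates 1, 2 and 3 and 13.7, 14.8 and 17.9 FPKM on glucose. e_gw1.7.839.1 had 21.6, 6.26 and 4.61 FPKM on xylose and 12.3, 12.5 and 17.9 FPKM on glucose, so replicate 1 lay above and the other two below all glucose libraries. fgenesh5_pg.C_scaffold_7000377 had 16.5, 8.01 and 3.48 FPKM on xylose and 5.38, 4.34 and 5.69 FPKM on glucose. None of the 3 was called on FPKM as deposited over all 6 libraries. With the median of ratios e_gw1.7.839.1 was called lower (-1.73), and with quantile normalization it (-1.80) and fgenesh5_pg.C_scaffold_7000377 (-0.82) were. Without xylose replicate 1, e_gw1.7.839.1 was called lower, and without replicate 3 e_gw1.7.813.1 and fgenesh5_pg.C_scaffold_7000377 were called higher.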

How the data were processed

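The deposited table holds FPKM for 9129 gene models in 6 RNA-seq libraries, computed by the authors, 1 column per library. Per the labels' protocols, RNA was taken with Trizol and libraries were built with a NEBNext Ultra DNA kit. Per the submitters' processing notes, Bowtie2 2.2.3, TopHat2 2.0.12 and HTSeq 0.6.1 were used, with no role given. For build, annotation and strand setting, nothing is given in the sources used here. Overlapping, antisense and near-identical genes therefore cannot be told apart. Columns were matched to samples by the labels' descriptions, and scaffold and number were read from each model name. None of the names matched the 9116 genes of the reference table (0 matches), so no sequence or function is given.

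The 7766 models whose mean reached 1 FPKM were tested on log2(FPKM + 1) by carbon source over all 6 libraries with limma 3.58.1 in R 4.3.3 (eBayes with a trend, two-sided, Benjamini-Hochberg adjustment over all tested models, threshold 0.05). This pseudocount understates changes of low models. Because FPKM is relative to the library total, a few abundant genes move every other value. Reads, lengths and library totals were solved from the steps between low FPKM values, as whole numbers (tolerance 1e-05 reads, plus 3e-09 of the value), for 99.98% of models above 0 and all 432 members above 0. A length is the smallest solution. Depth limits models near 1 FPKM, and reads are not independent molecules. The steps were tested on simulated data.

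The members, series and rules were chosen with earlier results of these data known. Models are named if they are among the 6 highest on either sugar, the 6 largest called rises or falls whose mean reaches 5 FPKM without overlap of the sugars, the 3 longest runs of calls in each direction, the 3 largest spreads on xylose at such a mean, or at 0 on 1 sugar only. Alternatives were other pseudocounts, filters and scalings, robust eBayes, a replicate block and leaving out each library.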

Additional observations from a re-analysis of the deposited data

How the results depend on the processing

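Scaling decided the split of calls on scaffold 7. Higher and lower calls became 80 and 205 with the median of ratios and 75 and 205 with quantile normalization. The median log2 fold change of the members turned to -0.59 and -0.60 and that of the other models became 0.15 and 0.034, because both scalings take out the common shift. The gap between the medians was -0.85 to -0.40 over all settings, and members had the lower median in each. A pseudocount of 5 gave medians of 0.26 and 0.67, no filter 0.27 and 0.92, and a filter at 5 FPKM 0.23 for the members. Correlations of adjacent models became 0.067 (e_gw1) and 0.046 (estExt_GeneWisePlus) with a pseudocount of 0.1, 0.18 (fgenesh5_pg) with a pseudocount of 5, 0.054 (estExt_fgenesh5_pg) with the filter at 5 FPKM, and 0.060 (e_gw1) and 0.091 (estExt_GeneWisePlus) with quantile normalization. Shares of summed FPKM without the 5 most abundant members were 3.08% and 2.55%. Leaving out 1 library gave 170 to 193 higher calls, 106 to 125 lower calls and medians of 0.33 to 0.49 in members. Of 53 named models tested, 34 kept call and direction under all 14 alternatives. The filter at 5 FPKM left 6 others without a value, and 2 of those kept both under the other alternatives. Reversals were seen with the median of ratios in estExt_fgenesh5_pg.C_70429 (-0.67), estExt_fgenesh5_pg.C_70231 (-0.023), estExt_fgenesh5_pg.C_70256 (-0.35) and estExt_GeneWisePlus.C_70382 (-0.43), and with quantile normalization in estExt_fgenesh5_pg.C_70245 (-0.49), estExt_fgenesh5_pg.C_70256 (-0.11) and fgenesh5_pg.C_scaffold_7000377 (-0.82). estExt_fgenesh5_pg.C_70245 was not called without glucose replicate 2. With a replicate block, 184 members were called higher and 112 lower. Nothing in the labels ties libraries of 1 number to a shared culture, and their deviations correlated at 0.001, -0.072 and 0.073, so the libraries were not taken as pairs.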
